A study of Mus musculus with 18 samples.

Results

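Canonical PRC1 is the form of Polycomb repressive complex 1 that carries a chromobox (CBX) protein, a Polyhomeotic (PHC) protein and BMI1 or PCGF2, and 9 genes that encode such subunits were followed here: *Cbx2*, *Cbx6*, *Cbx7*, *Cbx8*, *Phc1*, *Phc2*, *Phc3*, *Bmi1* and *Pcgf2*. They were taken by name from 4 tables of mRNA levels, which hold 55462 gene names together, and all 9 were present and above the filter on low values in all 4 tables. Where a name had several entries in a table, the entry with the highest mean was used, which could be an entry that names several genes.

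All libraries came from mice at postnatal day 0. Hippocampi were compared between 3 control libraries, Kdm2bfl/+ or Kdm2bfl/fl, and 3 libraries of Kdm2bEmx1-delta-CxxC, a conditional knockout (cKO) that removes the floxed exon for the CxxC zinc finger of *Kdm2b* and leaves a truncated protein. Neural progenitor cells enriched from such hippocampi and grown as neurospheres with FGF2 and EGF gave 2 control and 2 cKO libraries, and cortices gave 2 and 2. Hippocampi of Rnf2fl/+ or Rnf2fl/fl controls and of mice labelled Rnf2Emx1-cKO, in which the gene for the catalytic PRC1 subunit RING1B is targeted, gave the last 2 and 2. In every cKO the recombination was driven by *Emx1*-Cre, which is active in the dorsal telencephalon, so interneurons, vessels, microglia and other cells of different origin kept the floxed gene. The labels do not say which controls carried 1 floxed allele or whether each library was 1 animal, so p values measure only the spread between libraries, which may be technical.

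PRC1 ubiquitinates histone H2A through RING1A or RING1B. In the canonical form a CBX protein reads H3K27me3, the mark that PRC2 writes, and PHC proteins polymerise through their SAM domain and bring distant Polycomb sites together. KDM2B belongs to a variant PRC1 instead, where its CxxC zinc finger binds unmethylated CG dinucleotides and brings the complex to CpG islands without a CBX protein. *Bmi1* is best known in the nervous system for the self-renewal of neural stem cells, in part through repression of *Cdkn2a*.

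The members lie on 6 chromosomes, in 2 cases as neighbours. On chromosome 11 of the GRCm38 build, *Cbx2* (chr11:119022962-119031270, plus strand) ends 5034 bases before *Cbx8* (chr11:119036305-119040969, minus strand), and *Pcgf2* lies on the same chromosome at chr11:97688823-97700497 (minus strand). On chromosome 15, *Cbx6* (chr15:79823896-79834688) and *Cbx7* (chr15:79915807-79971119) are both on the minus strand, 81118 bases apart. The others are *Phc1* (chr6:122317731-122340561, minus), *Phc2* (chr4:128654702-128752881, plus), *Phc3* (chr3:30899371-30969415, minus) and *Bmi1* (chr2:18677018-18686629, plus). In GENCODE M21, *Cbx6* overlaps *Npcd* on its own strand and *Cbx7* overlaps *Apobec3* on the opposite strand, and the library kit is not named as one that keeps strand.

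Since the deleted zinc finger recognises CG dinucleotides, promoter sequence was read for the members. RefSeq promoters (GRCm38.p6, 250 bases before to 50 bases after the start) matched 8 of the 9 members, all but *Cbx2*, with 10 promoters in all, 3 of them of *Phc2*. They held between 2 and 45 CG dinucleotides with a median of 21, while the median over all 32851 promoters was 7 and the quartiles were 3 and 20. That background includes genes that are silent here, and promoters of expressed genes were not set apart. The promoter of *Cbx7* held 33, a count reached by 8.56% of all promoters, that of *Cbx8* 24 and that of *Bmi1* 23, whereas *Pcgf2*, the paralog of *Bmi1*, held 10. The palindrome CACGTG, called an E-box and overlapping 1 CG, stood in 6 of the 10 promoters, those of *Cbx6*, *Cbx8*, *Phc3*, *Bmi1*, *Pcgf2* and 1 of *Phc2*, against 7.15% of all promoters. Of the 9 member promoters with at least 9 CG, the count of the *Phc1* promoter, 6 held it, beside 10.8% of all 15040 such promoters. This motif was chosen after the sequences were seen, and a match is a string of letters and not a bound site. Below are the promoters of the 2 CBX genes that differed most between hippocampi and neurospheres and of the *Bmi1* and *Pcgf2* pair, written 5′ to 3′ on the strand of the gene with every CG in capitals, so that the density of the letters KDM2B can bind is visible. They are chr15:79932597-79932896 and chr11:119040864-119041163 on the minus strand, chr2:18676768-18677067 on the plus strand and chr11:97699599-97699898 on the minus strand.
Cbx7: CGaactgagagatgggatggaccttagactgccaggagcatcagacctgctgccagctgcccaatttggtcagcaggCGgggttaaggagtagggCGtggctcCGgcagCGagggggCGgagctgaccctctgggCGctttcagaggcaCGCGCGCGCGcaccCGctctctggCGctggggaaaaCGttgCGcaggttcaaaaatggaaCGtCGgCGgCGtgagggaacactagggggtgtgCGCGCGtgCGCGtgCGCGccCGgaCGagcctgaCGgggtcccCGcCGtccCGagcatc
Cbx8: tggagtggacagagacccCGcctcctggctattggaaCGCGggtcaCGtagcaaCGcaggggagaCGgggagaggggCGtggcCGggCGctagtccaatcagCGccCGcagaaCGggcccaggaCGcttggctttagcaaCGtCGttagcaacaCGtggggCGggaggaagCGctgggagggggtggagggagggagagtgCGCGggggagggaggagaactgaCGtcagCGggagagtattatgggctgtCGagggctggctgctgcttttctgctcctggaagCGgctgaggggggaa
Bmi1: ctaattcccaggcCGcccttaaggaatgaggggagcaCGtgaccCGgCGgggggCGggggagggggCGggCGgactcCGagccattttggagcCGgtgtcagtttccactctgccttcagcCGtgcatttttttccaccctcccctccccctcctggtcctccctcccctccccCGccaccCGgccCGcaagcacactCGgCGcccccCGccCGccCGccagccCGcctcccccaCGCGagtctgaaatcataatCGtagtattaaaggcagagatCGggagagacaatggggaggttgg
Pcgf2: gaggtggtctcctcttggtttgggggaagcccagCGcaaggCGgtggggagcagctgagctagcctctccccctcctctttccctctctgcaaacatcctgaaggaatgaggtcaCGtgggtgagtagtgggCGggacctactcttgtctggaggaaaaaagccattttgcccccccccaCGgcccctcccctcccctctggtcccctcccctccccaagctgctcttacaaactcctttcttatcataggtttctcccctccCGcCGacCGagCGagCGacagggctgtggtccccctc

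Levels are given as FPKM, a count of sequenced fragments divided by transcript length and library depth, and each table was normalised by itself. The depth of each hippocampal and neurosphere library of the *Kdm2b* mice cannot be read from the values, while the cortical and *Rnf2* values are whole multiples of what 1 read is worth, which gave 18463270 to 21884591 and 14654894 to 16334420 reads on named genes. In neurosphere control 1, entries that name no gene held 29.3% of the FPKM, against 0.876% to 1.95% in the other 3 neurosphere libraries. The dentate gene *Prox1* averaged 34.3 and 21.1 FPKM in the 2 sets of control hippocampi and 1.19 FPKM in control cortices. The whole list of 6 hippocampus markers that holds it went the other way. It summed to 407.2 to 446.3 and 310.9 to 362.2 FPKM in control hippocampi and 603.9 to 664.2 FPKM in control cortices. In neurospheres the pyramidal neuron gene *Neurod6* was near 0, at 0.0539 FPKM in controls. FPKM of the whole gene does not isolate the floxed exon, and *Kdm2b* itself stayed close to controls, with log2 fold changes of -0.10, 0.06 and -0.13 in hippocampi, neurospheres and cortices. *Rnf2* was 32.3 and 30.8 FPKM in its controls and 28.5 and 27.8 FPKM in its cKO libraries, a change of -0.16 on the log2 scale (limma, adjusted p = 0.762), so in this table the groups stand on their labels. Which exons of *Rnf2* are floxed is not given in the sources used here.

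The question for each table was which canonical subunits differed between the libraries labelled as controls and as cKO of *Kdm2b* or *Rnf2*. Levels in the controls came first. In control hippocampi *Phc2* (51.1 ± 0.399 FPKM, SD, n = 3) and *Phc1* (31.4 ± 0.888) were the most abundant subunits with an entry of their own, ahead of *Pcgf2* (27.0 ± 0.119), *Bmi1* (24.8 ± 1.63) and *Phc3* (8.80 ± 0.172), and the readers *Cbx8* (5.21 ± 0.651), *Cbx2* (5.05 ± 0.326) and *Cbx7* (3.43 ± 0.221) were lowest. In this order only *Cbx8* and *Cbx2* had libraries that overlapped. The entry that holds *Cbx6* stood at 149.6 ± 15.7 FPKM, but it is shared with *Npcd* and *Nptxr*, a neuronal pentraxin receptor, and an entry that names *Cbx6* alone was at 4.73 ± 0.516 FPKM. Where the tables count the genes apart, *Nptxr* was at 54.9 FPKM and *Cbx6* at 10.9 FPKM in control hippocampi of the *Rnf2* set, so the shared entry cannot be read as *Cbx6*.

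*Phc2* led in control neurospheres at 84.1 FPKM, ahead of *Bmi1* at 34.3 FPKM and *Phc1* at 21.0 FPKM. *Cbx8* was at 13.8 FPKM and was the most abundant of the 3 readers with an entry of their own, and *Cbx2* was the lowest member at 3.68 FPKM. In control cortices *Bmi1* led at 49.3 FPKM, *Phc2*, *Phc1* and *Pcgf2* followed at 27.9, 26.8 and 26.0 FPKM with overlapping libraries, and *Cbx7* was the lowest at 1.42 FPKM. *Bmi1* also led in the *Rnf2* controls at 41.0 FPKM, and *Cbx7* was again the lowest at 1.13 FPKM. In each table the group of 2 or 3 lowest members therefore included CBX readers, and the highest members were a PHC gene, *Bmi1* or the shared *Cbx6* entry.

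**Figure D1:**
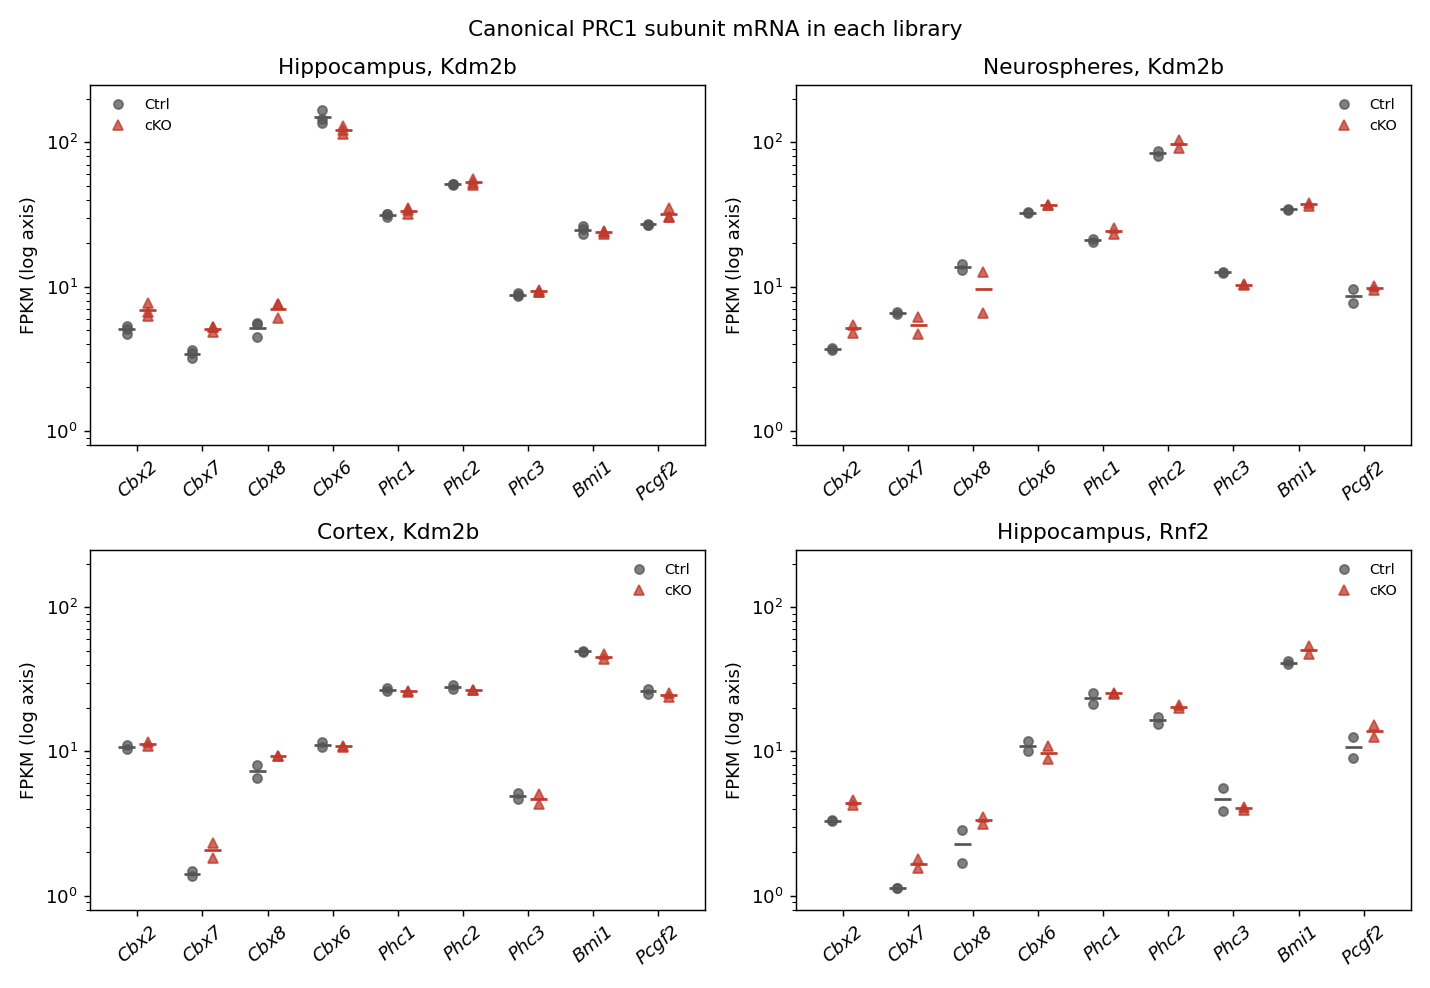
FPKM of each member (log axis) in every library of the 4 tables, with control libraries as grey circles, cKO libraries as red triangles and a bar at each group's mean. *Cbx7* sits lowest of all members in both hippocampal tables and in cortex, and the *Cbx6* position of the hippocampal and neurosphere *Kdm2b* panels is the entry shared with *Npcd* and *Nptxr*.

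Paralogs took different shares of their family in different sets of libraries. Of the summed FPKM of *Bmi1* and *Pcgf2*, which encode alternative RING finger partners of RING1B, *Pcgf2* took 50.6% to 53.9% in the 3 control hippocampi of the *Kdm2b* set, 18.1% and 22.1% in control neurospheres, 33.9% and 35.1% in control cortices and 18.4% and 22.9% in *Rnf2* controls. Both sets of control hippocampi thus differed in this ratio by more than the spread within either, although they are the same tissue and age by label; the 2 tables were made separately and their pipelines may differ. In hippocampi of the *Kdm2b* cKO the share of *Pcgf2* was 55.6% to 60.4%, above all 3 controls, and in the other 3 tables the groups overlapped. *Phc2* took 55.8% to 56.3% of the PHC sum in control hippocampi of the *Kdm2b* set and 70.9% and 72.0% in control neurospheres. In control cortices it took 46.8% and 46.7%, and in *Rnf2* controls 40.8% and 33.1%. This share thus also differed between the 2 sets of control hippocampi.

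**Figure D2:**
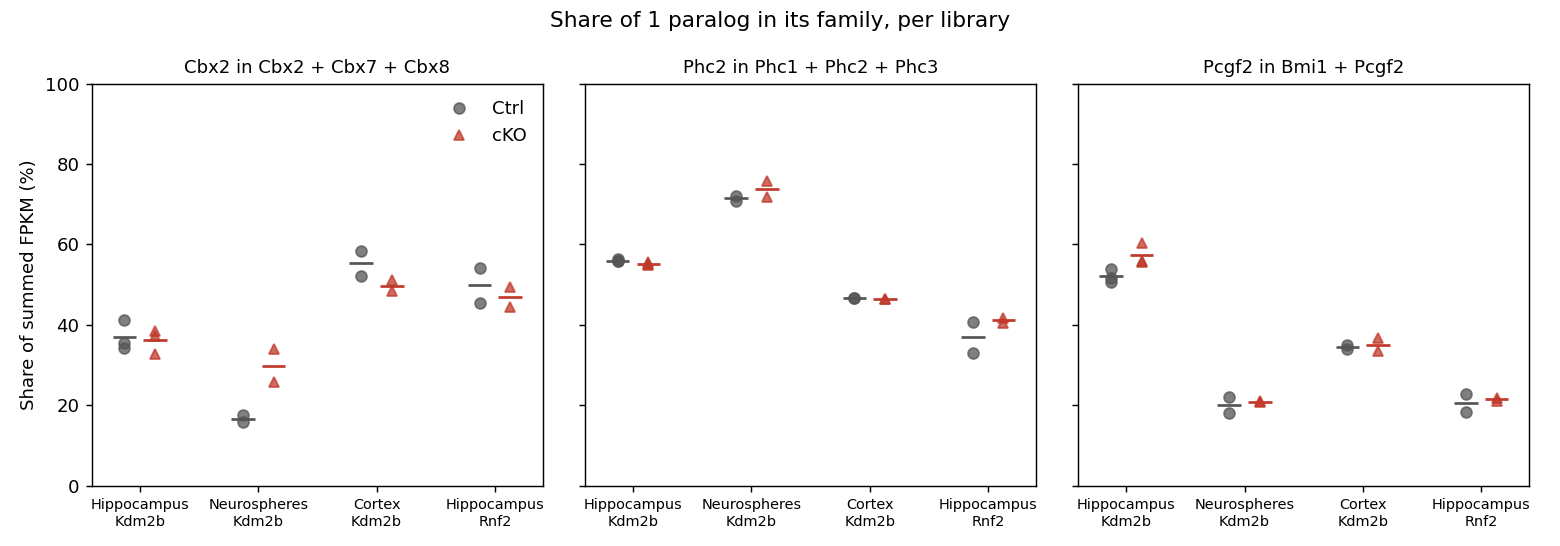
Percent of the summed FPKM of a family that 1 paralog takes, per library, for *Cbx2* among *Cbx2*, *Cbx7* and *Cbx8*, *Phc2* among the PHC genes and *Pcgf2* beside *Bmi1*, with controls as grey circles, cKO as red triangles and bars at the means. For neurospheres the *Cbx7* entry naming that gene alone was used, and *Cbx2* goes from 15.8% and 17.5% in controls to 34.0% and 25.7% in cKO libraries there.

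In hippocampi labelled as *Kdm2b* cKO, 1 of the 4 readers, *Cbx7*, rose, to 1.49 times control, and *Cbx2* and *Cbx8* stood at 1.37 and 1.35 times control without passing the fold threshold. The PHC genes and *Bmi1* moved little. *Pcgf2* was 1.19 times its control level. *Cbx7* was the 1 member of 9 that passed the test, which asked for more than 0.4 on the log2 scale and an unadjusted p under 0.05 (limma on log2(FPKM + 1)), and 6.14% of all 13446 genes tested passed it in either direction, 3.89% upwards.

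*Cbx7*, a reader abundant in embryonic stem cells and several adult tissues, was at 3.64, 3.46 and 3.20 FPKM in controls and at 4.82, 5.28 and 5.24 FPKM in cKO hippocampi. Every cKO library lay above every control. The log2 fold change was 0.46 (SE 0.089, adjusted p = 0.0161 by limma with Benjamini-Hochberg adjustment over all genes), and the call held with each library left out in turn, where the change ranged from 0.43 to 0.50. Over all 16 alternatives its adjusted p lay between 0.0151 and 0.0680. *Apobec3*, which overlaps *Cbx7* on the other strand, also stood higher in these cKO libraries. Its own entry was at 0.80, 1.48 and 1.32 FPKM in controls and 1.76, 2.24 and 2.46 FPKM in cKO hippocampi. The part of reads from *Apobec3* in the *Cbx7* values was not tested.

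*Cbx2*, whose product compacts nucleosomes in vitro, was at 5.05, 4.72 and 5.37 FPKM in controls and 7.74, 6.68 and 6.25 FPKM in cKO libraries. These groups also did not overlap, and the log2 fold change of 0.38 (SE 0.096, adjusted p = 0.0426) fell just short of the fold threshold. *Cbx8*, next to *Cbx2* in the genome, was at 5.53, 5.64 and 4.46 FPKM against 7.54, 6.03 and 7.53 FPKM, with a log2 fold change of 0.37 (SE 0.113, adjusted p = 0.0775). Both readers passed with a pseudocount of 0.1 FPKM in place of 1, at 0.44 and 0.43. Without control 3 or without cKO 3 *Cbx2* passed, at 0.42 and 0.44, and without control 1, control 2 or cKO 2 *Cbx8* passed, at 0.41, 0.42 and 0.46.

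The shared *Cbx6* entry was lower, at 145.0, 167.1 and 136.7 FPKM in controls and 121.0, 114.4 and 129.95 FPKM in cKO libraries (-0.29 on the log2 scale, adjusted p = 0.0520). The entry of *Cbx6* alone was at 4.15, 4.91 and 5.13 FPKM against 4.50, 4.74 and 5.22 FPKM, a change of 0.025 (adjusted p = 0.915). Its groups overlapped, so the lower value of the shared entry cannot be assigned to *Cbx6*.

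Of the RING finger partners, *Pcgf2* was at 27.1, 26.9 and 26.9 FPKM in controls and 35.3, 30.3 and 30.3 FPKM in cKO libraries, of which the first stands apart. All 3 lay above the controls, with a log2 fold change of 0.23 (SE 0.065, adjusted p = 0.0606). *Bmi1* was at 25.3, 23.0 and 26.2 FPKM against 23.2, 23.8 and 24.2 FPKM, and its log2 fold change of -0.06 had a 95% interval from -0.20 to 0.07. For *Phc1*, *Phc2* and *Phc3* the changes were 0.09 (-0.03 to 0.21), 0.05 (-0.07 to 0.16) and 0.07 (-0.07 to 0.22), and only *Phc3*, at 8.64 to 8.98 FPKM in controls and 9.23 to 9.48 FPKM in cKO libraries, had groups that did not overlap. Each of these 4 intervals stays inside the fold threshold.

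Over the 9 members the median log2 fold change was 0.09 beside 0.0084 over all genes, and groups did not overlap for 6 of 9 members beside 29.2% of all genes. In the same libraries the mRNA of markers of several cell types moved as well. Of the 4 intermediate progenitor markers tested 3 rose, and their list summed to 63.6 to 67.7 FPKM in controls and 97.5 to 106.8 FPKM in cKO. Of 10 radial glia and progenitor markers 4 rose, none of 10 neuron markers passed (median log2 fold change -0.24, 8 of 10 with groups apart), and 3 of 6 microglia markers rose. Of 6 astrocyte markers 2 fell (median -0.23, 4 of 6 with groups apart) and 2 had a change above 0. The astrocyte list summed to 175.7 to 210.5 FPKM in controls and 184.2 to 260.4 FPKM in cKO. Of 4 choroid plexus markers tested 3 rose, in a list that summed to 5.62 to 17.2 FPKM in controls and 8.06 to 61.4 FPKM in cKO. No astrocyte fall or choroid plexus rise had an adjusted p under 0.05 by limma. In bulk tissue fewer cells of a type and less RNA per cell cannot be told apart, and the part of these shifts in the values of *Cbx2*, *Cbx7*, *Cbx8* and *Pcgf2* was not tested.

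In neurospheres of the same genotype *Cbx2* was 1.39 times control, while *Cbx7*, *Cbx8* and *Phc3* were at 0.837, 0.697 and 0.824 times. No member passed the test by limma, where 24.6% of the 12227 genes tested did; 2 members, *Cbx2* and *Phc3*, had an unadjusted p under 0.05, as did 38.2% of all genes. Groups did not overlap for 8 of 9 members beside 66.4% of all genes.

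*Cbx2* was at 3.62 and 3.74 FPKM in controls and at 4.80 and 5.46 FPKM in cKO neurospheres, with a log2 fold change of 0.39 (SE 0.118, adjusted p = 0.0662). Both cKO libraries lay above both controls, and without cKO 1 the change was 0.46 and passed. *Cbx8* was at 14.4 and 13.1 FPKM against 6.53 and 12.6 FPKM. One cKO library was far below the controls and the other close to them, so the log2 fold change of -0.54 (SE 0.268, adjusted p = 0.197) rested on cKO 1: it was -0.11 without that library and -0.97, past the threshold, without cKO 2.

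The *Cbx7* entry in this table is shared with *Apobec3*, an antiviral cytidine deaminase gene on the other strand, and was at 6.64 and 6.41 FPKM in controls and 4.72 and 6.21 FPKM in cKO libraries (log2 fold change -0.23, adjusted p = 0.280). A second entry that names *Cbx7* alone was at 4.98 and 4.48 FPKM against 2.77 and 3.16 FPKM. There the cKO libraries were below both controls, the log2 fold change was -0.53 (SE 0.126, adjusted p = 0.0342), and this entry, looked at after the data were seen, passed the threshold. How reads were divided between the 2 entries is not given in the sources used here.

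*Phc3*, the PHC gene with the lowest level here, was at 12.7 and 12.4 FPKM in controls and 10.4 and 10.3 FPKM in cKO neurospheres. Its replicates lay close together and the groups apart, with a log2 fold change of -0.26 (SE 0.085, adjusted p = 0.0824). *Phc1* was at 20.5 and 21.5 against 25.4 and 23.0 FPKM, and *Phc2* at 81.0 and 87.3 against 91.6 and 104.4 FPKM, changes of 0.19 and 0.22 with 95% intervals from -0.02 to 0.41 and from -0.03 to 0.46. The PHC genes thus stood on both sides of 0. *Bmi1* (34.6 and 34.0 against 38.2 and 36.1 FPKM), *Pcgf2* (7.64 and 9.63 against 10.1 and 9.45 FPKM) and the shared *Cbx6* entry (32.8 and 32.3 against 37.0 and 36.5 FPKM) had changes of 0.11, 0.17 and 0.17, with adjusted p from 0.161 to 0.371.

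Among *Cbx2*, *Cbx7* and *Cbx8*, *Cbx2* made up 15.8% and 17.5% of the summed FPKM in control neurospheres and 34.0% and 25.7% in cKO, and *Cbx8* 62.6% and 61.5% against 46.3% and 59.4%. Proliferation and glial genes moved in the same libraries. All 10 markers of dividing cells rose (summed 353.0 to 371.2 FPKM in controls, 749.1 to 800.9 FPKM in cKO), and all 6 astrocyte markers fell (368.1 to 376.5 against 92.7 to 95.7 FPKM). Of 6 oligodendrocyte lineage markers 4 fell, *Pdgfra* among them, and 2 had a change above 0. That list summed to 2414.9 to 2497.5 FPKM in controls and 2454.1 to 2515.9 FPKM in cKO. Microglia and blood lists were near 0, at no more than 1.09 and 3.08 FPKM in any library. The part of these shifts in the values of the members was not tested. With libraries scaled to equal FPKM totals over named genes, the median of all genes moved from -0.011 to 0.094 and the share of calls that were higher from 46.2% to 60.2%, and the *Phc3* and *Cbx8* changes became -0.15 and -0.43.

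**Figure D3:**
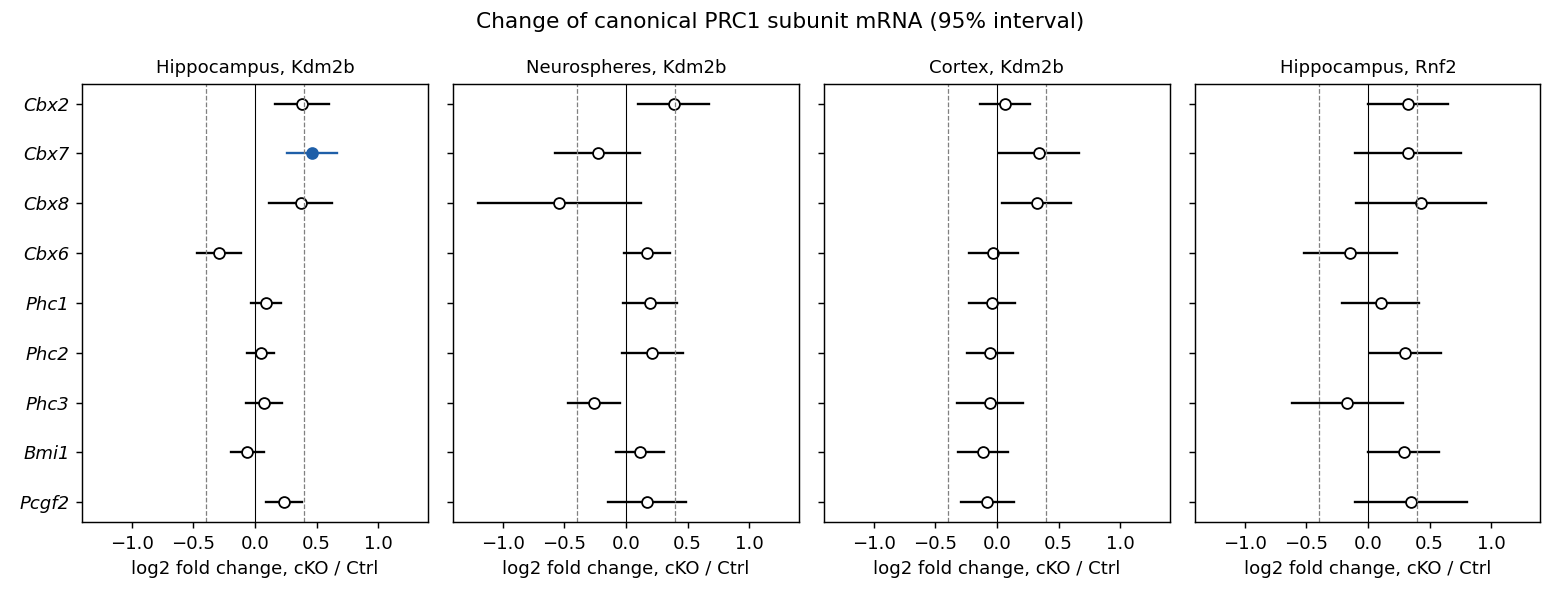
Log2 fold change of each member, cKO over control on the log2(FPKM + 1) scale, with 95% intervals from limma, in the 4 comparisons; dashed lines mark 0.4 in either direction and the filled blue point is the 1 call, *Cbx7* in hippocampi at 0.46. *Cbx2*, *Cbx7* and *Cbx8* lie above 0 in the 3 tissue panels, and in neurospheres *Cbx2* lies at 0.39 with *Cbx7* and *Cbx8* at -0.23 and -0.54.

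Whether a member changed differently in neurospheres than in hippocampi was tested with an interaction term over both tables. For 4 of the 9 members the difference had an adjusted p under 0.05, beside 26.9% of the 12516 genes tested. *Cbx7* differed by -0.69 (neurospheres minus hippocampi, SE 0.156, adjusted p = 0.00754), from a rise of 0.46 to a value of -0.23, and by -0.99 with the entry that names it alone. *Cbx8* differed by -0.91 (SE 0.284, adjusted p = 0.0346) and *Phc3* by -0.33 (SE 0.096, adjusted p = 0.0257). The shared *Cbx6* entry differed by 0.46 (adjusted p = 0.0150), and with the entry of *Cbx6* alone in hippocampi by 0.14 (adjusted p = 0.434).

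Of these 4, *Cbx7* was the most stable: its adjusted p stayed under 0.05 with each library left out, and it was lost with equal FPKM totals, at -0.61 (adjusted p = 0.0829). The *Cbx8* difference lost its call in 7 of the 10 cases with 1 library left out (hippocampal control 1, control 3, cKO 1 and cKO 3, and neurosphere control 1, control 2 and cKO 1), down to -0.48 without neurosphere cKO 1 (adjusted p = 0.0775). The *Phc3* difference kept its size, from -0.34 to -0.32, and lost its call in 6 of the 10 (hippocampal control 1, control 3 and cKO 1, and neurosphere control 1, control 2 and cKO 2), and with equal FPKM totals it was -0.24 (adjusted p = 0.577). The *Cbx6* entry lost its call without neurosphere control 2 (0.45, adjusted p = 0.0513). The other 5 members had differences with adjusted p from 0.194 to 0.983. That of *Cbx2*, which stood higher in both, was 0.0054 (SE 0.148).

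**Figure D4:**
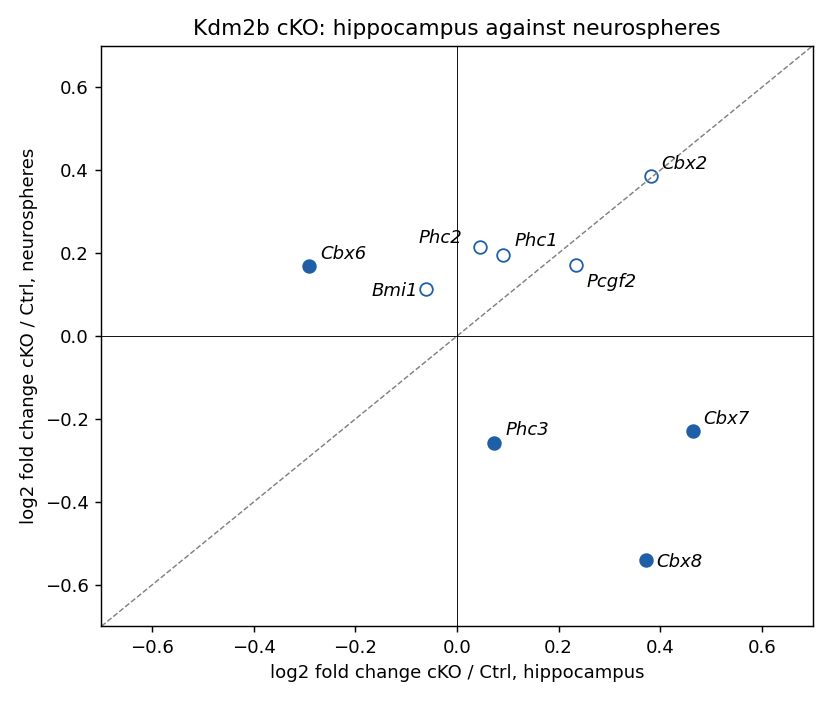
Log2 fold change of each member in *Kdm2b* cKO hippocampi (horizontal) against neurospheres (vertical), with the line of equal change dashed; filled points have an interaction adjusted p under 0.05. *Cbx2* lies on the line at 0.38 and 0.39, and *Cbx7*, *Cbx8* and *Phc3* lie below it.

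In cortices of the *Kdm2b* cKO, *Cbx7* and *Cbx8* were 1.46 and 1.28 times control, and the other 7 members were between 0.922 and 1.05 times. No member passed the test by limma, where 7.01% of the 15691 genes tested did. *Cbx7* and *Cbx8* had an unadjusted p under 0.05, as did 12.8% of all genes, and limma-voom on the recovered reads called 1 member, *Cbx7*, beside 1051 higher and 412 lower of the 15691 genes.

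*Cbx7* was at 1.48 and 1.37 FPKM in control cortices and 1.83 and 2.32 FPKM in cKO cortices, from 211, 189, 233 and 282 reads. Counting error alone was 5.95% to 7.27% per library. The log2 fold change was 0.34 (SE 0.126, adjusted p = 0.364) on the log2(FPKM + 1) scale, which understates a gene this low, 0.51 with a pseudocount of 0.1 and 0.53 in the read-based fit (adjusted p = 0.163). *Cbx8* was at 8.05 and 6.53 FPKM against 9.28 and 9.34 FPKM (0.32, SE 0.110, adjusted p = 0.333), and passed without control 1, at 0.45. *Cbx7* passed without cKO 1, at 0.46.

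*Cbx2* was at 10.4 and 11.1 FPKM in control and 11.6 and 10.97 FPKM in cKO cortices, with overlapping groups and a change of 0.06 (95% interval -0.14 to 0.26). *Bmi1* (48.6 and 50.02 against 47.0 and 43.9 FPKM) was at -0.12 and *Pcgf2* (24.95 and 27.1 against 23.7 and 25.4 FPKM) at -0.08. *Phc1* (26.2 and 27.5 against 25.8 and 26.3 FPKM), *Phc2* (27.1 and 28.6 against 26.8 and 26.6 FPKM), *Phc3* (4.64 and 5.16 against 5.05 and 4.32 FPKM) and *Cbx6*, counted by itself here (11.6 and 10.7 against 10.96 and 10.7 FPKM), were between -0.058 and -0.030. The widest of their intervals was that of *Phc3*, from -0.32 to 0.21. *Nptxr*, part of the shared entry elsewhere, was 7.21 FPKM in control and 12.1 FPKM in cKO cortices (log2 fold change 0.68, adjusted p = 0.0949).

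Groups did not overlap for 4 of 9 members, beside 44.8% of all genes. In the cKO cortices 6 of 6 meninges markers rose, from a sum of 1.65 to 2.50 FPKM to 22.1 to 29.4 FPKM, and 3 of 6 endothelium, 3 of 6 microglia and 3 of 5 blood markers tested rose. Their part in the *Cbx7* and *Cbx8* values was not tested. Against hippocampi, no member had an interaction adjusted p under 0.05, beside 1.85% of 12163 genes. *Pcgf2* (-0.31, adjusted p = 0.196) and *Cbx2* (-0.32, adjusted p = 0.285) had an unadjusted p under 0.05, as did 14.4% of all genes. Their log2 fold changes were 0.23 and 0.38 in hippocampi and -0.08 and 0.06 in cortices, and none of these passed the test.

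In hippocampi labelled as *Rnf2* cKO, where the target is the catalytic partner that canonical and variant PRC1 share, 7 of 9 members stood higher in cKO by 0.10 to 0.43 on the log2 scale, where 49.9% of all genes had a change above 0. None passed the test by limma, beside 4.71% of the 15764 genes tested, and 0 of all genes in this table passed with an adjusted p in place of the unadjusted one. *Phc2* and *Bmi1* had an unadjusted p under 0.05, as did 7.11% of all genes, and limma-voom called 1 member, *Cbx7*, beside 402 higher and 354 lower of all genes. The median over members was 0.30 beside -0.0002 over all genes.

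*Bmi1*, which pairs directly with RING1B, was at 40.1 and 42.0 FPKM in controls and 47.1 and 54.0 FPKM in cKO hippocampi (0.29, SE 0.116, adjusted p = 0.697). *Pcgf2* was at 9.06 and 12.5 FPKM against 12.6 and 15.2 FPKM (0.35, SE 0.182, adjusted p = 0.736). For both, the groups stood apart, for *Pcgf2* by less than the gap between its own controls, and *Pcgf2* passed without control 2, at 0.56. *Phc2* was at 17.4 and 15.4 FPKM against 20.9 and 20.0 FPKM (0.30, SE 0.116, adjusted p = 0.690). *Phc1* (21.4 and 25.6 against 25.1 and 25.3 FPKM) and *Phc3* (3.85 and 5.57 against 4.10 and 3.95 FPKM) overlapped, at 0.10 and -0.17.

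Among the readers, *Cbx2* was at 3.31 and 3.32 FPKM in *Rnf2* controls and 4.22 and 4.59 FPKM in cKO (0.32, SE 0.130, adjusted p = 0.702). *Cbx7* was at 1.12 and 1.13 FPKM against 1.79 and 1.54 FPKM, from 109, 114, 192 and 162 reads (0.33, SE 0.172, adjusted p = 0.737), and 0.56 in the read-based fit (adjusted p = 0.698). *Cbx8* was at 2.86 and 1.68 FPKM against 3.49 and 3.16 FPKM (0.43, SE 0.212, adjusted p = 0.727), with 1 control close to the cKO libraries, and passed without control 1, at 0.69. All 3 readers had both cKO libraries above both controls. *Cbx6* (11.8 and 10.01 against 10.8 and 8.79 FPKM) overlapped, at -0.14.

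Groups stood apart for 6 of 9 members beside 38.3% of all genes. Of 6 meninges markers 3 fell, from a sum of 29.4 to 30.7 FPKM to 14.2 to 21.4 FPKM, and the choroid plexus list ranged from 13.3 to 51.3 FPKM in controls and from 8.96 to 243.8 FPKM in cKO, and their part in the members' values was not tested. Compared with the *Kdm2b* hippocampi, no member's change differed with an adjusted p under 0.05, beside 0.788% of 12685 genes. *Bmi1* (0.35 higher in the *Rnf2* set, adjusted p = 0.166) and *Phc2* (0.26, adjusted p = 0.257) had an unadjusted p under 0.05, as did 15.7% of all genes. For *Cbx2*, *Cbx7* and *Cbx8* the differences were -0.06, -0.14 and 0.06 with SE of 0.149, 0.148 and 0.225.

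The partners and neighbours of these subunits were read from lists of the other Polycomb genes. Of the shared core, RING1A and RING1B, neither passed in any tissue table, and *Ring1* (in an entry with *Mir219a-1*) fell in neurospheres from 16.01 to 10.5 FPKM (log2 fold change -0.56, adjusted p = 0.00807).

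Of 15 variant PRC1 genes, 2 rose in hippocampi, where 3.89% of all genes did. They were *Bcor* (in an entry with *2900008C10Rik*), the corepressor of the complex that holds KDM2B, at 1.44 (adjusted p = 1.82e-05) and its paralog *Bcorl1* at 0.54 (adjusted p = 0.0345). *Bcor* also rose in neurospheres (0.70, adjusted p = 0.0376) and cortices (1.22, adjusted p = 0.0428), *Fbrsl1* (in an entry with *Gm29766*) fell in neurospheres (-0.41, adjusted p = 0.0255), and *Auts2* rose in the *Rnf2* set at 0.47 with an adjusted p of 0.697. Of the PRC2 genes none of 11 tested passed in *Kdm2b* hippocampi. In neurospheres 5 of 11 rose and 1 fell, where 24.6% of all 12227 genes tested passed in either direction. The catalytic subunit *Ezh2* rose at 0.61, *Suz12* at 0.55, *Rbbp7* at 0.50, *Phf19* at 0.50 and *Phf1* (in an entry with *Kifc5b*) at 0.44. *Ezh1*, the paralog of *Ezh2*, fell at -0.70. Of the 5 rises 4 had an adjusted p under 0.05 by limma, as did the fall. *Epop*, which links PRC2 to elongin, rose in cortices at 1.59 (adjusted p = 0.0240) and in the *Rnf2* set at 0.86 (adjusted p = 0.501), as the 1 PRC2 gene of 12 that passed in each. Of all genes 7.01% and 4.71% passed there in either direction. By comparison the 1 canonical member past the threshold in the entries used was *Cbx7* in hippocampi at 0.46.

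Genes whose levels followed a member most closely were named by Pearson correlation over all 18 libraries, after values were centred and scaled within each table, among 11054 genes past the filter in every table. These correlations describe 18 points that share tables, groups and, in pairs or triplets, a condition, and scaling tables of 4 libraries makes high values easy to reach. *Cbx8* was close to *Maff* (r = 0.91). *Pcgf2* was closest to another member, *Phc1* (0.86), then to *Flna* (0.86). For *Cbx2* these were *Trp53i11* (0.94) and *Fhod3* (0.94), and for *Cbx7*, shared with *Apobec3* in neurospheres, *4833418N02Rik* (0.93) and *Dexi* (0.93). For the entries used for *Cbx6* they were *Klhl2* (0.90) and *Ppp4r4* (0.90). In hippocampi and neurospheres of the *Kdm2b* mice those entries are shared with *Npcd* and *Nptxr*, so the correlations cannot be assigned to *Cbx6*. For *Phc1* they were *Lancl3* (0.95) and *Wdr62* (0.93), for *Phc2* *Csnk1e* (0.91), for *Phc3* *Abcd2* (0.96) and *Slc20a2* (0.92), and for *Bmi1* *Celf5* (0.88) and *Coro2b* (0.85). Between members the highest values were *Pcgf2* with *Phc1* and *Cbx7* with *Cbx8* (0.85), and the lowest was *Cbx6* with *Cbx7* (-0.56), which includes the 2 shared entries.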

How the data were processed

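Groups were taken from the deposited labels. Per the labels, reads were processed with cutadapt, STAR, Cufflinks 2.2.1 and DESeq2 on GRCm38/mm10, and the authors deposited FPKM values, which their methods describe for hippocampi and neurospheres. How the cortical and Rnf2 FPKM values were made is not stated further. 

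Genes whose mean reached 0.5 FPKM were compared on log2(FPKM + 1) by limma 3.58.1 in R 4.3.3 (lmFit, eBayes with a trend), each table by itself, at the thresholds the study's methods use, 0.4 for the log2 fold change and 0.05 for the unadjusted p. Interactions used both tables. The scale understates changes of low genes. Reads of the cortical and Rnf2 tables were recovered from FPKM times length, within 0.05 of whole numbers, and intervals and counting errors cover counting only. The scripts were tested on simulated data. Named were all members, both targeted genes, other Polycomb genes past the threshold and the 2 genes most correlated with each member; some of these are not reported here. Members and lists were chosen with earlier results of these data known. Alternatives were another pseudocount, other filters, scalings and entries, no trend, limma-voom on recovered reads, a replicate block and each library left out; entries naming a member alone and crossed numbers were added after the data were seen.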

Additional observations from a re-analysis of the deposited data

Results flagged for a closer look

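In all, 4 differences between the *Kdm2b* comparisons in hippocampi and neurospheres stood out because the interaction of genotype and table had an adjusted p under 0.05 by limma. The log2 fold change in neurospheres minus that in hippocampi was 0.46 for the entry of *Cbx6*, *Npcd* and *Nptxr*, -0.69 for *Cbx7*, -0.91 for *Cbx8* and -0.33 for *Phc3*. For *Cbx7* the neurosphere entry is shared with *Apobec3* and the hippocampal one is not. With the neurosphere entry that names *Cbx7* alone the difference was -0.99. *Cbx7* lay above controls in 3 of 3 cKO hippocampi and below them in 2 of 2 cKO neurospheres, *Cbx8* likewise, and *Phc3* likewise. The *Cbx6* entry lay below controls in 3 of 3 and above them in 2 of 2. These positions restate the values behind the 4 differences. Groups did not overlap for 29.2% of all genes in hippocampi and 66.4% in neurospheres. The neurosphere gaps were narrow, with cKO 2 against control 2 at 12.6 and 13.1 FPKM for *Cbx8* and 6.21 and 6.41 FPKM for *Cbx7*. With 26.9% of all genes past the same threshold, 4 of 9 members is to be read against that share.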

How the results depend on the processing

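Counts of members called moved with the fold threshold and the pseudocount, because several changes lie close to 0.4. In *Kdm2b* hippocampi 3 members were higher with a pseudocount of 0.1, 2 with entries of a name summed and 4 without a fold threshold, which also gave 1 lower member, and leaving out a library gave 1 to 2. Over all genes, 726 of 13446 were higher with the pseudocount of 0.1, 524 with summed entries and 23.0% passed in either direction without a fold threshold. With a hippocampal library left out, 488 to 590 genes were higher. In neurospheres 1 was higher with a pseudocount of 0.1 and 1 without a fold threshold, 1 was lower without a fold threshold and 1 with the entry naming *Cbx7* alone, and leaving out a library gave 0 to 1 in either direction. In cortices 1 was higher with a pseudocount of 0.1, 1 with limma-voom and 2 without a fold threshold, and in the *Rnf2* set 1 with limma-voom and 2 without a fold threshold; leaving out a library gave 0 to 1 in both. Over all genes with a pseudocount of 0.1, 1492 of 12227 were higher in neurospheres and 924 of 15691 in cortices, and without a fold threshold 38.2%, 12.8% and 7.11% passed in neurospheres, cortices and the *Rnf2* set. Members that differed between neurospheres and hippocampi fell from 4 to 2 with equal FPKM totals, and to 1 to 4 with a library left out. No share over all genes stands beside the interaction counts or the fits that leave 1 library in a group. Those counts therefore cannot be read as a result about the members. Beyond the pseudocount and the threshold itself, the cause of these shifts was not tested.

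Replicate numbers showed no clear pairing of the samples. Same-numbered deviations correlated at -0.10 to 0.05 in hippocampi, -0.28 in neurospheres, -0.05 in cortices and 0.16 in the *Rnf2* set. In neurospheres, cortices and the *Rnf2* set the 2 pairs give only 1 value, so pairing there cannot be decided. With the replicate number as a block, 1 member was higher in the *Rnf2* set, beside 552 of all 15764 genes tested. By that setting 1 member differed between neurospheres and hippocampi, with no share over all genes beside it, and no other count changed. With neurosphere numbers crossed, 1 member was lower, beside 1639 of all 12227 genes tested.

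Signs turned for small values. With the entry of *Cbx6* alone its hippocampal change became 0.025, its cortical difference from hippocampi -0.056 and its *Rnf2* difference -0.17. With equal FPKM totals the neurosphere difference of *Pcgf2* became 0.021 and the *Rnf2* difference of *Phc1* -0.0086. With a library left out, cortical changes ranged from -0.083 to 0.023 for *Cbx6* and from -0.15 to 0.038 for *Phc3*, and *Rnf2* changes from -0.020 to 0.22 for *Phc1* and from -0.39 to 0.053 for *Phc3*. Neurosphere differences ranged from -0.072 to 0.083 for *Cbx2* and from -0.21 to 0.086 for *Pcgf2*, the cortical difference of *Cbx8* from -0.18 to 0.083, and *Rnf2* differences from -0.12 to 0.018 for *Cbx2*, -0.21 to 0.32 for *Cbx8*, -0.11 to 0.13 for *Phc1* and -0.096 to 0.33 for *Pcgf2*. Groups held 2 or 3 libraries, and in groups of 2 a lone library was assumed to vary like the others when 1 was left out.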
